A study of Mus musculus with 64 samples.

Results

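Of 10 genes named for apolipoproteins and lipoprotein assembly, 8 could be followed on the arrays: Apoa1, Apoa2, Apoa4, Apoa5, Apoc3, Apoe, Mttp and Lcat. The genes were chosen by name, as the probes whose annotated symbol is on the list. The rule uses no measured value, but the list was drawn up with earlier results of these data known. The 8 genes had 9 probes (Lcat had 2) among 16593 genes with a probe, and all 8 passed the filter on dim probes that left 10495 genes for testing. No annotated probe carried the symbol Apob or Lipc, so the structural protein of liver-made particles and hepatic lipase were not analysed here.

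Apolipoproteins are the protein coat of the particles that carry lipid in blood, and the liver is a main source of most of them. Very low density particles are built in the hepatocyte when the microsomal triglyceride transfer protein (Mttp) loads lipid onto apolipoprotein B. In the circulation Apoc3 and Apoa5 restrain and promote the removal of their triglyceride, Apoe is the ligand for uptake by receptors, and Apoa1, Apoa2 and the cholesterol-esterifying enzyme Lcat belong to high density particles.

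The samples were 64 arrays of 31 male C57BL/6 mice, from liver tumours (37 arrays, 22 mice) and liver (27 arrays, 27 mice). Mice of every group, placebo included, had been injected with the liver carcinogen diethylnitrosamine (DEN, 50 mg/kg) at 2 weeks of age, were gavaged 2 times a day for 28 days from about 44 weeks, and were 48 weeks old at sacrifice after a 3 h fast. The treated groups were the combination of RAD001 at 2.5 mg/kg with BEZ235 at 18 mg/kg (tumours of 4 mice, livers of 7), BEZ235 alone at 30 mg/kg (tumours of 6, livers of 6) and RAD001 alone at 10 mg/kg (tumours of 6, livers of 7). Placebo mice gave tumours of 6 animals and livers of 7. The last BEZ235 dose was given 1 h before sacrifice. RAD001 (everolimus) blocks mTOR complex 1 and BEZ235 blocks the catalytic sites of PI3K and mTOR. The model is 1 carcinogen in 1 sex of 1 strain, the liver samples are carcinogen-exposed too, and each tumour RNA comes from bulk tissue.

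Apoa4, Apoa5 and Lcat carry the differences described below, so the 250 bases before the annotated start of each are shown (RefSeq, GRCm38.p6). The more upstream of the 2 annotated Apoa5 starts was used. Apoa4 (chr9:46240594-46240843, plus strand) and Apoa5 (chr9:46268358-46268607, plus strand) lie on chromosome 9 beside Apoa1, whose 250 bases are at chr9:46228380-46228629. Lcat (chr8:105943403-105943652, minus strand) lies elsewhere. Sequences run 5′ to 3′, and capitals mark matches to the motifs searched.
Apoa4: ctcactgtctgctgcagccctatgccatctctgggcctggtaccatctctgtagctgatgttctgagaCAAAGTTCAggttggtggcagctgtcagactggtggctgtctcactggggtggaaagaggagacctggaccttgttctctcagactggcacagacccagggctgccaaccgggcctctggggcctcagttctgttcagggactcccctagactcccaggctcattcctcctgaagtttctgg
Apoa5: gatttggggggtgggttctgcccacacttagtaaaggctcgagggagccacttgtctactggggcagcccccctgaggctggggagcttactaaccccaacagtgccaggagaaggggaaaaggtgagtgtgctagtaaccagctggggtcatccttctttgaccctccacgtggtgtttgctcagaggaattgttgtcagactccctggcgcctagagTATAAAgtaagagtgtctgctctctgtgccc
Lcat: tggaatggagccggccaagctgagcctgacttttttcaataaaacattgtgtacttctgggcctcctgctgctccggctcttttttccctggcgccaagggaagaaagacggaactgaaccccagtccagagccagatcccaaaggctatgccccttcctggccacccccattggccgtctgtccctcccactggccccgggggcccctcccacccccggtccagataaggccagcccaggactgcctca

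The motifs searched on both strands were CAAAGNNCA and the TATA box TATAAA. CAAAGNNCA is part of the direct repeat that the hepatocyte factor HNF4A is known to bind, not the whole repeat. Apoa4 holds CAAAGNNCA from 182 to 174 bases before its start, and Apoa5 holds TATAAA from 31 to 26 bases before its start. The Lcat window holds neither string. Of 32851 RefSeq promoter windows of the same length, 5.49% hold CAAAGNNCA and 12.4% hold TATAAA. A match describes the letters and is not evidence of a bound site.

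All values below are log2 intensities, on which a difference of 1 is a 2-fold change, after 1 joint normalization of the 64 arrays. Separate tumours of 1 animal were averaged, so n counts animals. Differences were tested with limma over all 10495 genes, and a gene was called when its adjusted p (Benjamini-Hochberg) was under 0.05. Levels of different probes are not comparable with each other.

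Some tumours and 2 livers stood apart from the rest of their tissue. A score over 1061 genes that separated placebo tumours from placebo livers, the lipoprotein genes left out, was scaled so that placebo livers average 0 and placebo tumours 1. It was 0.392 in the combination tumour of mouse 773, 0.302 and 0.681 in the BEZ235 tumours of mice 693 and 759, and 0.458, 0.574 and 0.710 in the RAD001 tumours of mice 732, 730 and 763, against 0.806 to 1.10 in placebo tumours. The other treated tumours scored at least 0.812. Among livers the combination liver of mouse 742 scored 0.284 and the BEZ235 liver of mouse 759 scored 0.151, and the others were between -0.04 and 0.083. Without mouse 742 the tumour minus liver differences in combination mice were 2.28 for Apoa4 and -0.71 for Lcat, both still called. Of 9 hepatocyte markers, 8 passed the filter, and their summed linear intensity ranged from 74605 to 91786 over the tumours and from 80402 to 102366 over the livers. Of these 8, the markers called lower in tumours were 3 in combination, 3 in BEZ235, 4 in RAD001 and 4 in placebo mice, with 1 called higher in placebo mice, and their median difference was between -0.32 and -0.24. Lcat and Apoa5 differ in the same direction. The 9 of 12 macrophage markers that passed summed to between 637 and 3860 in tumours and between 2359 and 8940 in livers. The 8 of 8 stellate cell markers summed to between 1434 and 5534 in tumours and between 1072 and 2960 in livers. Placebo tumours were at 3009 or more. The single markers were split, with 2 called higher and 2 lower in combination mice. In BEZ235, RAD001 and placebo mice 3 were called higher and 1 lower. Their median difference was -0.29, 0.28, -0.22 and 0.24 in combination, BEZ235, RAD001 and placebo mice. In bulk RNA, fewer cells of a type and less RNA per cell cannot be told apart, and the part of these cell types in the differences below was not tested.

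Tumour against liver was the comparison that separated the lipoprotein genes. Apoa4, an apolipoprotein of triglyceride-rich particles, was 4.55 to 10.0-fold higher in tumours than in livers in each of the 4 treatments. Lcat was 1.55 to 1.86-fold lower in tumours in each of the 4. Apoa5 was lower in RAD001 and placebo tumours, by 2.36-fold and 2.54-fold. Apoa1, Apoa2, Apoc3 and Apoe did not pass the test in any treatment. The members called were 2 of 8 in combination mice, 2 of 8 in BEZ235 mice, 4 of 8 in RAD001 mice and 3 of 8 in placebo mice. Among all 10495 genes, 19.2% were called in combination mice, 26% in BEZ235 mice, 28.5% in RAD001 mice and 34.8% in placebo mice. The count of members lay close to that share in BEZ235, placebo and combination mice and above it in RAD001 mice, where 1 of the 4 calls, Mttp, was lost under several alternatives. The median difference over the 8 members was -0.07 in combination, -0.01 in BEZ235, -0.12 in RAD001 and -0.04 in placebo mice, where the median of all genes was between -0.01 and 0.01.

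**Figure D1:**
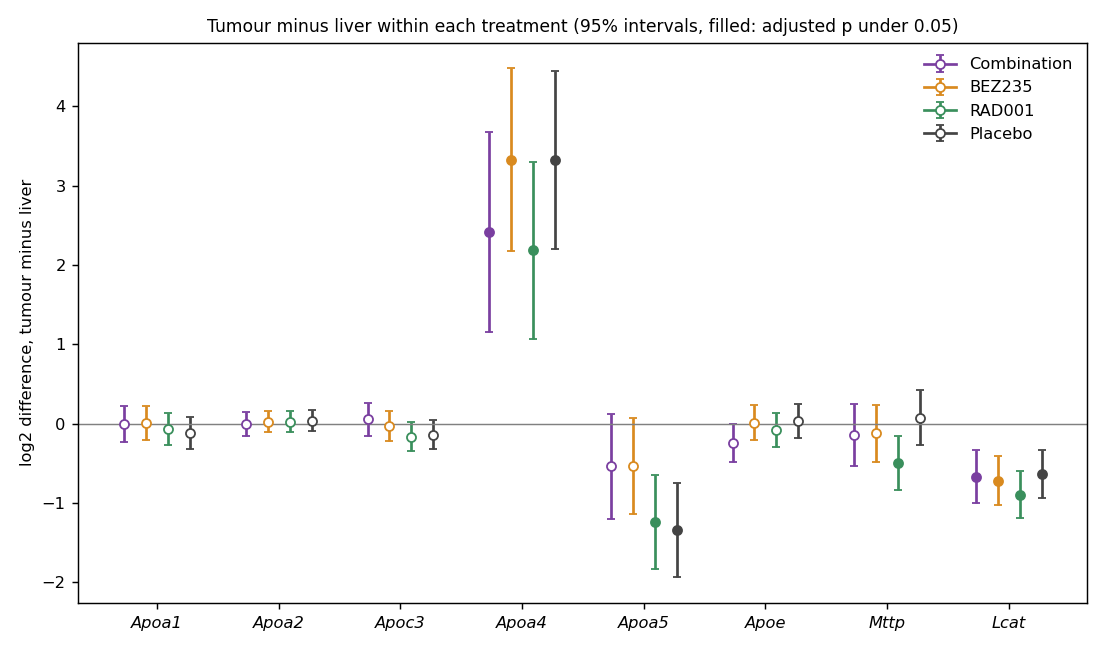
Tumour minus liver difference in log2 intensity for each gene (x axis) within each treatment (colour). Points are limma estimates with 95% intervals, filled where the adjusted p was under 0.05; Apoa4 lies between 2.19 and 3.33 and Lcat between -0.90 and -0.63 in the 4 treatments.

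Lcat, which esterifies the cholesterol of high density particles, was the most even of the 3. In combination mice it measured 11.20, 11.27, 11.58 and 11.66 in the tumours, against 11.84, 12.13 and 12.32 (lowest, median and highest of 7) in the livers. BEZ235 mice had a lowest, median and highest Lcat of 10.66, 11.35 and 11.87 in tumours and 11.73, 11.95 and 12.39 in livers. In RAD001 mice the same 3 values were 10.63, 11.37 and 11.72 in tumours and 11.96, 12.08 and 12.35 in livers. Placebo tumours ran from 11.18 over a median of 11.46 to 11.62, and placebo livers from 11.85 over 12.06 to 12.30. Tumours and livers did not overlap in combination, RAD001 and placebo mice, and overlapped in BEZ235 mice. The differences were -0.67 ± 0.17 (SE; adjusted p = 0.00306, limma) with the combination, -0.72 ± 0.15 (0.000344) with BEZ235, -0.90 ± 0.15 (6.22e-06) with RAD001 and -0.63 ± 0.15 (0.000665) with placebo. The dimmer Lcat probe gave -0.73, -0.87, -0.86 and -0.80 in the same order, each called as well.

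Apoa4 showed the widest spread of the 8 genes. Combination tumours measured 12.41, 13.15, 14.17 and 14.62, against 10.28, 10.89 and 11.98 (lowest, median and highest) in combination livers. BEZ235 tumours had a lowest, median and highest Apoa4 of 11.53, 13.74 and 14.84, and BEZ235 livers of 9.29, 9.81 and 12.01. RAD001 tumours ran from 10.04 over a median of 14.00 to 14.69, and RAD001 livers from 9.65 over 10.81 to 12.08. Placebo tumours lay at 12.98, 14.11 and 14.52, and placebo livers at 9.63, 10.60 and 11.91. The tissues did not overlap in combination and placebo mice. The low BEZ235 value belonged to mouse 759 and the low RAD001 values to mice 763 (10.04) and 732 (10.69), so that 4 of 6 RAD001 tumours exceeded every RAD001 liver.

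The Apoa4 difference was 2.41 ± 0.63 (SE) with the combination (adjusted p = 0.00434, limma), 3.33 ± 0.57 with BEZ235 (2.05e-05), 2.19 ± 0.55 with RAD001 (0.00199) and 3.33 ± 0.56 with placebo (4.69e-06). The combination call was lost with the animal as a fixed block (2.32, adjusted p = 0.0559) and without mouse 713 (1.96, adjusted p = 0.0596). Without mouse 759 the BEZ235 difference was 4.10, and without mouse 763 the RAD001 difference was 2.87, both called. Leaving out 1 mouse at a time took the difference as low as 2.98 with BEZ235 and 1.845 with RAD001, still called. Over the other settings the RAD001 difference ran from 2.14 to 2.82, with an adjusted p of at most 0.0396 (limma). With array weights in limma the RAD001 difference was 2.82 (7.04-fold), called as well. With the tumours of mice 693, 759, 730, 732 and 773 left out, the differences were 2.82, 3.98, 2.46 and 3.33 in combination, BEZ235, RAD001 and placebo mice, all called. The enterocyte markers Fabp2 and Cdx2 did not pass the filter. The 2 of 4 that passed summed to at most 70.2 in tumours and 62.9 in livers in linear intensity. The noise SD was 7.02 on that scale. Among these markers Vil1 was 0.76 higher in placebo tumours (adjusted p = 0.0264).

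Apoa5, which promotes lipolysis of triglyceride by lipoprotein lipase, was called in 2 of the 4 treatments. Combination tumours measured 9.80, 10.10, 10.26 and 10.70, and combination livers 10.23, 10.71 and 11.22 (lowest, median and highest). BEZ235 tumours lay at 9.24, 9.92 and 10.87, against 9.66, 10.32 and 11.49 in BEZ235 livers. RAD001 tumours had 7.15, 9.45 and 9.95 and RAD001 livers 9.79, 10.24 and 10.66. In placebo tumours the 3 values were 8.13, 8.85 and 9.72, against 9.85, 10.34 and 10.57 in placebo livers. The placebo tissues did not overlap and the others did. The difference was -0.54 ± 0.33 (SE; adjusted p = 0.287, limma) with the combination, -0.54 ± 0.30 (0.203) with BEZ235, -1.24 ± 0.29 (0.000908) with RAD001 and -1.35 ± 0.29 (0.000252) with placebo. Without mouse 763 the RAD001 difference was -0.87 (adjusted p = 0.0146). A call in 2 treatments and none in the other 2 does not show that the treatments differ; the test of that difference is given with the treatment effects.

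Mttp passed the test in RAD001 mice and in no other treatment, although the difference between treatments itself was not called (given with the treatment effects). RAD001 tumours measured 7.56, 8.35 and 8.60 (lowest, median and highest) and RAD001 livers 8.42, 8.80 and 8.96, a difference of -0.50 ± 0.17 (SE; adjusted p = 0.0243, limma). The RAD001 tissues overlapped, although each of the 6 tumour means per mouse lay below the liver median. One of the separate tumours of mouse 763 reached 8.83. The call was lost without mouse 732 (-0.34, adjusted p = 0.166), without mouse 730 (-0.49, 0.0520) and without mouse 763 (-0.46, 0.0657), with the animal as a fixed block (-0.53, 0.0877), and with the tumours of mice 693, 759, 730 and 732 left out (-0.37, 0.137). In the other treatments the difference was -0.14 with the combination, -0.12 with BEZ235 and 0.07 with placebo.

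The 4 genes that did not pass were among the brightest on the arrays. Apoa2 reached 73.4 to 100% of the brightest probe of its array (median 92.4%), Apoc3 33.1 to 100% (91.8%), Apoa1 48.4 to 91.7% (80.0%) and Apoe 43.4 to 78.0% (61.7%). Near the top of the scale a further rise has little room, so a miss there does not show equal RNA levels. Tumour minus liver differences of Apoa1, the main protein of high density particles, ran from -0.11 (95% interval -0.32 to 0.09, placebo) to 0.01 (-0.20 to 0.22, BEZ235). For Apoa2 they ran from 0.00 with the combination (-0.15 to 0.15) to 0.04 with placebo (-0.10 to 0.17). Apoc3, an inhibitor of lipoprotein lipase, ranged from -0.17 with RAD001 (-0.35 to 0.02) to 0.05 with the combination (-0.15 to 0.26). Apoe had -0.24 with the combination (-0.49 to 0.00, adjusted p = 0.169) and lay between -0.08 and 0.03 in the other treatments. Macrophages also make Apoe, and 4 of the 9 macrophage markers in combination, BEZ235 and RAD001 mice and 6 in placebo mice were lower in tumours; their part in the Apoe values was not tested.

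**Figure D2:**
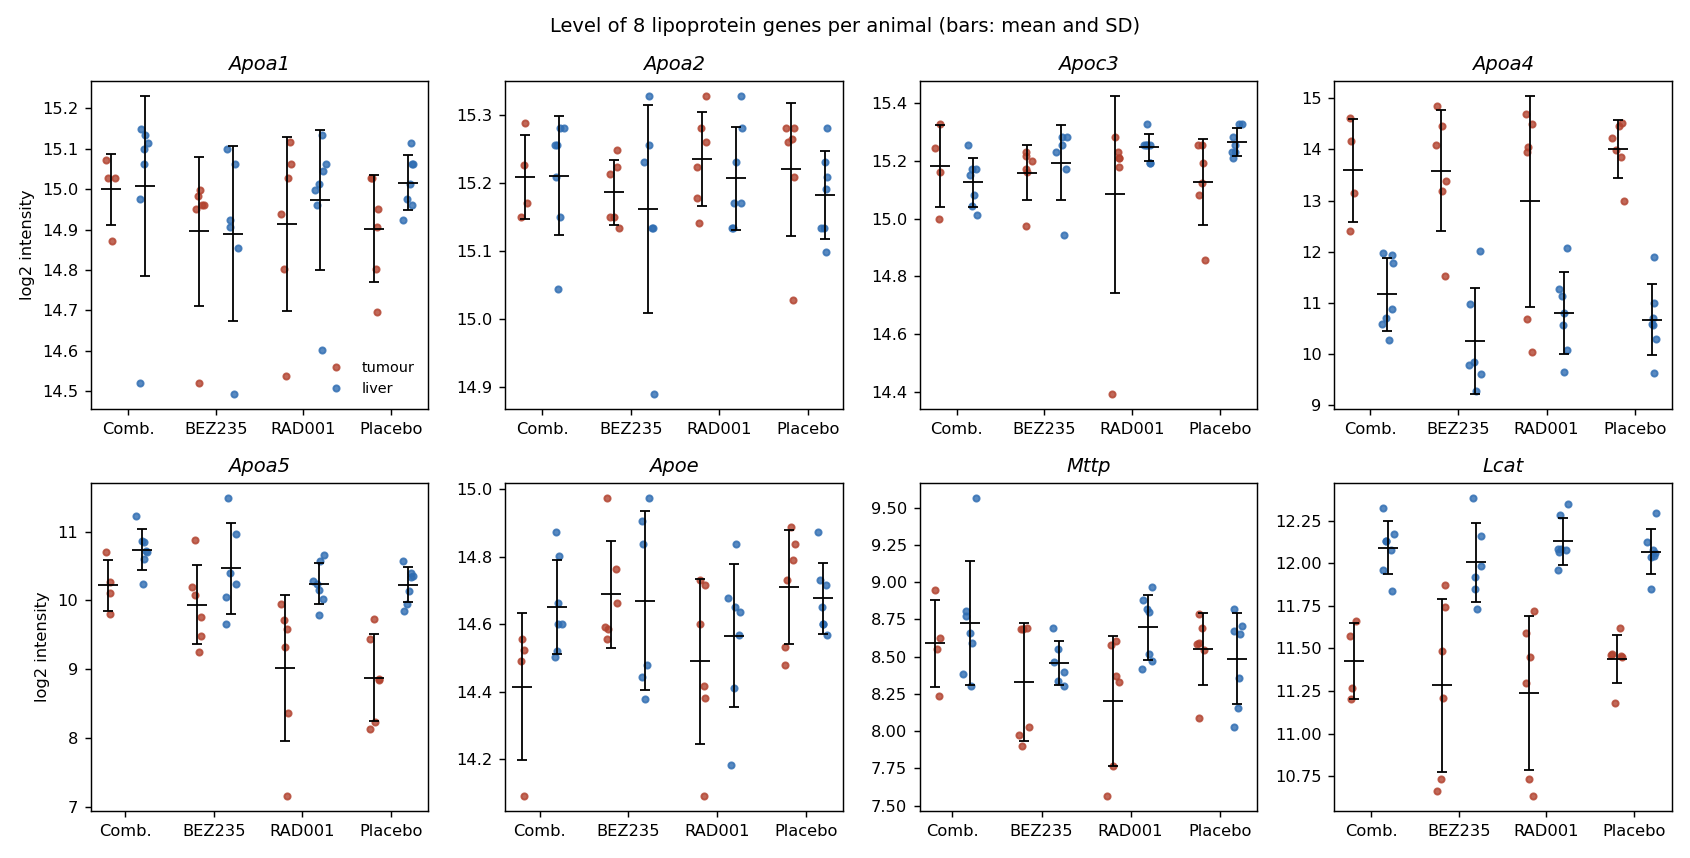
Log2 intensity (y axis, its own scale per gene) of 8 genes in each animal, by treatment (x axis), tumours in red left of livers in blue; lines are mean and SD. Apoa4 is mostly higher and Lcat mostly lower in tumours, with overlap of Apoa4 in BEZ235 and RAD001 mice and of Lcat in BEZ235 mice, while all values of Apoa2 lie between 14.89 and 15.33.

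Within single mice Lcat kept its direction in every mouse, and Apoa4 and Apoa5 in most. Of the 18 mice that gave tumour and liver, Apoa4 was higher in the tumour in 16, with a median difference of 3.42. The exceptions were BEZ235 mouse 759 (11.53 in tumour, 12.01 in liver) and RAD001 mouse 763 (10.04 in tumour, 11.28 in liver). Lcat was lower in the tumour in 18 of 18, by a median of -0.67 and a range of -1.55 to -0.24. Apoa5 was lower in 17 of 18, with a median of -0.78. BEZ235 mouse 697 was the exception for Apoa5, with 10.08 in tumour and 10.05 in liver. Apoe was lower in the tumour in 13 of 18, among them 4 of 4 combination and 5 of 5 RAD001 mice, with a median difference of -0.10. Apoa1 and Mttp were each higher in 9 mice and lower in 9.

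**Figure D3:**
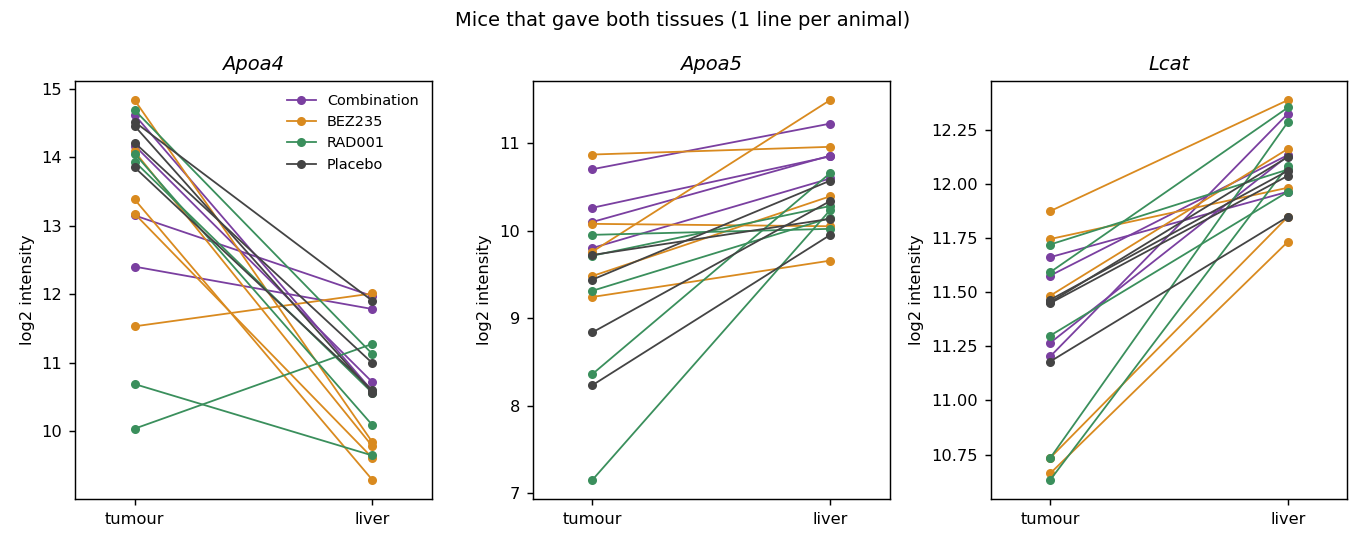
Log2 intensity in the tumour (left) and the liver (right) of each of 18 mice, 1 line per animal, coloured by treatment. Apoa4 lies higher in the tumour in 16 mice, Apoa5 lower in 17 and Lcat lower in 18.

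Separate tumours of 1 mouse could differ as much as tumour and liver did. In the 12 mice with more than 1 tumour array, the spread between tumours had a median of 1.12 for Apoa4, 1.02 for Apoa5, 0.48 for Lcat and 0.36 for Mttp. It was at most 0.16 for Apoa2 and 0.42 for Apoe. The widest Apoa4 spread was in BEZ235 mouse 759, whose tumours had 13.96 and 9.11. In RAD001 mouse 763 the first tumour had 12.23 for Apoa4, 9.46 for Apoa5, 11.71 for Lcat and 15.08 for Apoc3. Its other tumour had 7.85, 4.84, 9.56 and 13.70 for the same genes, all lower. The 4.84 of Apoa5 lay below the intensity of 14.0 used to filter dim probes, so that end of its spread is near the floor. RAD001 mouse 772 had tumours with 6.14 and 10.59 for Apoa5 but 12.92 and 14.96 for Apoa4.

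**Figure D4:**
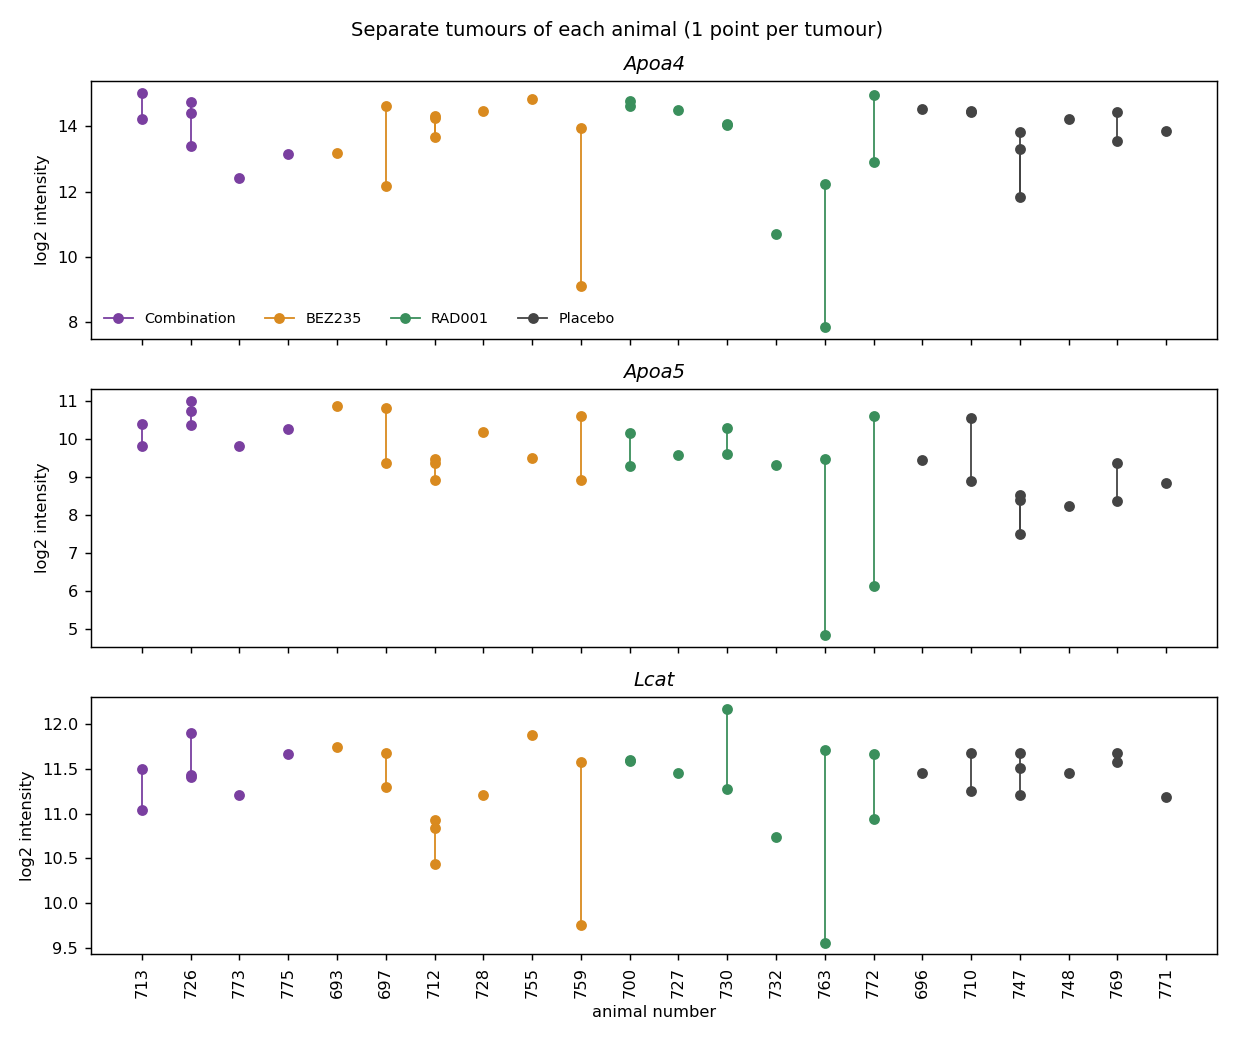
Log2 intensity of Apoa4, Apoa5 and Lcat in every tumour array (points), joined within an animal (x axis, animal number) and coloured by treatment. Tumours of mouse 763 span 4.38 for Apoa4, 4.62 for Apoa5 (its low end near the floor) and 2.15 for Lcat.

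Over the 22 mice with tumours, after subtraction of the group means, Pearson's r was 0.73 between Apoa4 and Mttp, 0.65 between Apoa4 and Lcat, 0.63 between Apoa5 and Apoc3 and 0.60 between Apoa4 and Apoe. Apoa1 and Apoa5 had -0.46. Over the 27 livers r was 0.17 between Apoa4 and Mttp, -0.15 between Apoa4 and Lcat, and -0.53 between Apoa2 and Apoa4. These are descriptions: the genes share arrays and tumour composition, and mouse 763 was low for several of them.

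No treatment effect on the 8 genes passed the test, and Apoa5 had the largest differences from placebo in combination and BEZ235 tumours. The question here is whether PI3K and mTOR inhibition changed lipoprotein genes within a tissue. The authors had normalized each treatment on its own, so a shift shared by all arrays of a treatment cannot be told apart from that step. No member was called against placebo in either tissue. The background was low as well: 0.276% of genes were called in combination livers, 0.0286% in BEZ235 livers and 0% in RAD001 livers, and 0% in combination, BEZ235 and RAD001 tumours. At an unadjusted p under 0.05 limma gave 1 member in combination livers, none in BEZ235 and RAD001 livers, 2 in combination tumours, 1 in BEZ235 tumours and none in RAD001 tumours, while 5.15 to 8.44% of all genes passed that looser limit. The comparisons share the placebo samples.

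Apoa5 in tumours averaged 10.22 ± 0.38 (SD, n = 4) with the combination, 9.94 ± 0.58 (n = 6) with BEZ235 and 9.01 ± 1.06 (n = 6) with RAD001, against 8.87 ± 0.63 (n = 6) with placebo. Averaged per mouse, each combination value lay above each placebo value, while the BEZ235 and RAD001 values overlapped the placebo values. Single tumours did overlap: the tumours of placebo mouse 710 measured 8.90 and 10.54. The differences from placebo were 1.35 ± 0.44 (SE; unadjusted p = 0.00573, adjusted p = 0.487, limma) with the combination, 1.07 ± 0.39 (0.0128, adjusted 0.909) with BEZ235 and 0.14 ± 0.39 (adjusted 0.946) with RAD001. In livers Apoa5 averaged 10.74 ± 0.30 (n = 7), 10.47 ± 0.66 (n = 6) and 10.24 ± 0.30 (n = 7) with combination, BEZ235 and RAD001, against 10.23 ± 0.26 (n = 7) with placebo. Of the combination livers 7 of 7 lay above the placebo mean, but the groups overlapped (lowest combination liver 10.23, highest placebo liver 10.57). The combination livers differed from placebo by 0.51 (unadjusted p = 0.0166, adjusted p = 0.423, limma). None of these passed the limit of the test, and over the alternatives tried the adjusted p stayed at 0.245 or more for the Apoa5 differences of combination tumours, BEZ235 tumours and combination livers from placebo.

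**Figure D5:**
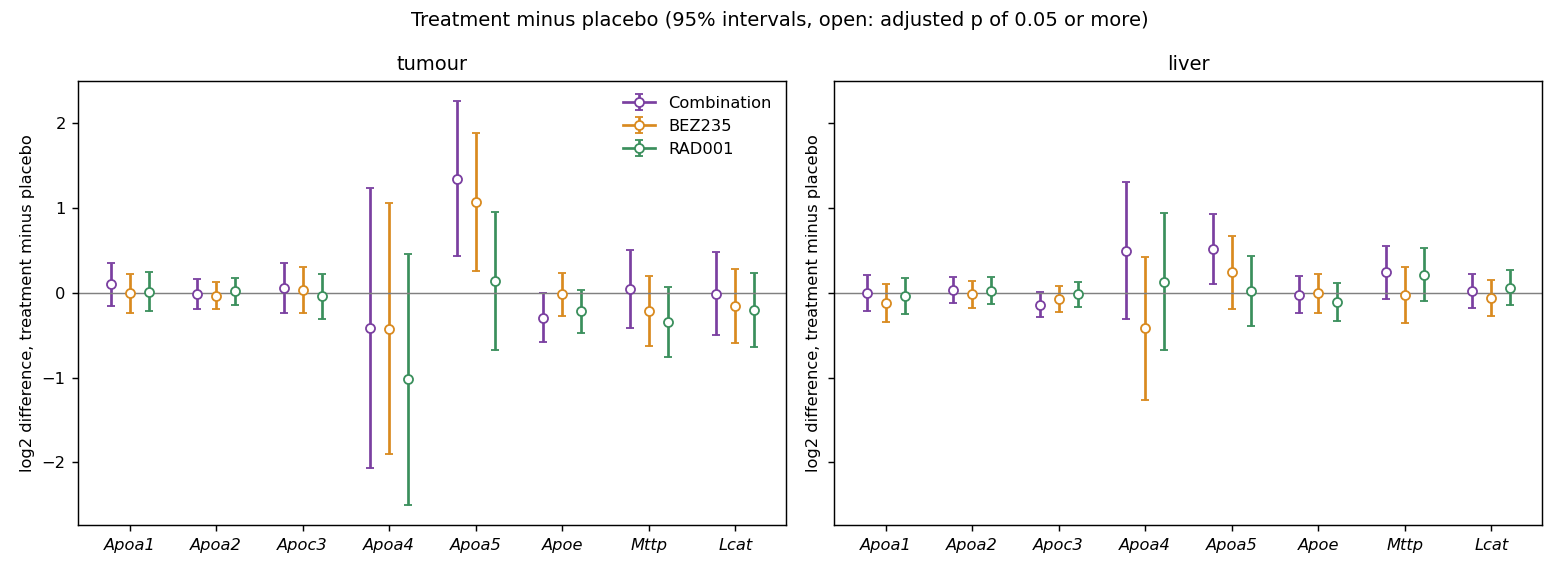
Treatment minus placebo difference in log2 intensity for each gene (x axis) in tumours (left panel) and livers (right panel), coloured by treatment, with 95% intervals; all points are open because no adjusted p was under 0.05. Apoa5 in tumours lies at 1.35 with the combination, 1.07 with BEZ235 and 0.14 with RAD001.

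For the other genes the intervals of the tumour differences from placebo were wide for Apoa4 and narrow for the bright probes. Those probes lie near the top of the scale, so narrow intervals there do not show equal RNA levels. Apoa4 differed by -0.42 with the combination (95% interval -2.07 to 1.24), -0.42 with BEZ235 (-1.90 to 1.05) and -1.02 with RAD001 (-2.50 to 0.46), intervals that hold large changes in either direction. Lcat differed by -0.01 (-0.50 to 0.47), -0.15 (-0.59 to 0.28) and -0.20 (-0.64 to 0.23) in the same order. Mttp differed by 0.04 (-0.42 to 0.50), -0.22 (-0.63 to 0.19) and -0.35 (-0.76 to 0.06). Apoe differed by -0.29 (-0.58 to -0.01) with the combination, with an adjusted p of 0.615 (limma). Apoa1 ran from -0.01 with BEZ235 to 0.10 with the combination, and Apoa2 from -0.03 with BEZ235 to 0.01 with RAD001. Apoc3 ran from -0.04 with RAD001 to 0.05 with the combination. In livers the differences of Apoa4 were 0.50, -0.42 and 0.13 with combination, BEZ235 and RAD001. Those of Mttp were 0.24, -0.03 and 0.21, and those of Lcat 0.02, -0.06 and 0.06. Liver differences ran from -0.13 (BEZ235) to -0.01 (combination) for Apoa1 and from -0.02 (BEZ235) to 0.03 (combination) for Apoa2. They ran from -0.14 (combination, adjusted p = 0.608, limma) to -0.02 (RAD001) for Apoc3 and from -0.11 (RAD001) to -0.01 (BEZ235) for Apoe.

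Between treatments the doses differed: the combination held less of each drug than the single treatments. No member was called. In livers limma gave 1 member at an unadjusted p under 0.05 between combination and RAD001 and 1 between combination and BEZ235. In tumours it gave 1 between combination and RAD001 and 1 between BEZ235 and RAD001. The other 2 pairs gave none. Among all genes, 3.90 to 9.79% passed that looser limit in the liver pairs and 2.86 to 4.58% in the tumour pairs. In livers 0.877% of genes were called between combination and RAD001, 0.152% between BEZ235 and RAD001 and 0% between combination and BEZ235. In tumours the shares were 0.0191%, 0.00953% and 0% for the same pairs. Apoa5 exceeded its RAD001 level by 1.20 in combination tumours (unadjusted p = 0.0119, adjusted p = 0.883, limma), by 0.92 in BEZ235 tumours (0.0280, adjusted 0.994) and by 0.49 in combination livers (0.0202, adjusted 0.401). Apoa4 was 0.91 higher in combination livers than in BEZ235 livers (unadjusted p = 0.0343, adjusted p = 0.999). These comparisons share groups with each other and with those against placebo.

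The test of whether a treatment effect differed between tumour and liver called no member. At an unadjusted p under 0.05 limma gave none for the combination and BEZ235 and 1 for RAD001. Of all genes, 8.44%, 5.35% and 7.50% passed that looser limit for combination, BEZ235 and RAD001. At an adjusted p under 0.05 the test called 0.00953% of genes for the combination, 0% for BEZ235 and 0.0191% for RAD001. For Apoa5 the effect in tumours exceeded that in livers by 0.81 with the combination (adjusted p = 0.642, limma), 0.81 with BEZ235 (0.910) and 0.10 with RAD001 (0.970). For Apoa4 the difference was -0.91 (0.820), 0.00 (1.00) and -1.14 (0.742) in that order. These values moved with single mice: leaving out 1 mouse at a time gave -1.37 to -0.41, -0.34 to 0.78 and -1.48 to -0.46, with 0.78 without mouse 759 and -0.46 without mouse 763. The 95% interval for BEZ235 was -1.61 to 1.61. Mttp had -0.57 with RAD001 (unadjusted p = 0.0233, adjusted p = 0.611).

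Around these genes, 5 further lists of the lipoprotein pathway were counted in the tumour against liver comparison. Their counts are to be read against the shares of all genes called, 19.2% with the combination, 26% with BEZ235, 28.5% with RAD001 and 34.8% with placebo. Of 11 tested members of the other apolipoproteins, 2 were higher and 1 lower with the combination, 4 and 1 with BEZ235, 3 and 2 with RAD001, and 3 and 3 with placebo. Apoc2, the activator of lipoprotein lipase, was higher in tumours by 1.23, 1.75, 1.35 and 1.84 in combination, BEZ235, RAD001 and placebo mice (adjusted p at most 0.000289, limma), and its tissues did not overlap in any of them. Apom, which carries sphingosine-1-phosphate on high density particles, was higher by 1.09, 1.08, 1.05 and 1.77 in that order. Clu (clusterin) was higher by 0.40 with BEZ235, 0.40 with RAD001 and 0.52 with placebo, and Apof by 0.34 with BEZ235. Apoc4 was lower by -0.32 with the combination, -0.25 with BEZ235 and -0.27 with placebo, and Apon by -0.66 with placebo. The serum amyloid gene Saa4 was lower by -1.29 with RAD001, and Saa2 by -1.09 with RAD001 and -0.71 with placebo. The list's median was between -0.18 and -0.12.

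Of 14 tested assembly and secretion partners, 1 was higher and 2 lower with the combination, 1 and 3 with BEZ235, 1 and 5 with RAD001, and 5 and 4 with placebo. The carboxylesterase Ces1d, which mobilises stored triglyceride for secretion, was lower in tumours by -0.95, -1.20, -1.53 and -2.07 in combination, BEZ235, RAD001 and placebo mice. P4hb, the smaller subunit of the complex with Mttp, was higher by 0.35, 0.51, 0.35 and 0.66 in the same order. Mttp was not called higher in any of them and was called lower with RAD001 (-0.50), a call lost under several alternatives. Plin2, a lipid droplet coat protein, was higher by 1.17 in placebo mice, and Aadac was lower by -0.80 with RAD001 and -1.0 with placebo. Cideb was lower by -0.52 with the combination, Dgat2 by -0.41 with BEZ235, -0.41 with RAD001 and -0.39 with placebo, and Mia2 by -0.53 with BEZ235 and -0.66 with RAD001. The list's median was between -0.15 and -0.01. The one call of a pathway gene outside tumour against liver was Apobec1, the enzyme that edits Apob RNA, at 7.50 in combination livers and 6.91 in RAD001 livers (0.59, adjusted p = 0.0484, limma).

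Of 6 tested receptors and their controls, 0 were higher and 1 lower with the combination, 1 and 1 with BEZ235, 2 and 1 with RAD001, and 2 and 2 with placebo. Lrp1, a receptor for Apoe-bearing remnants, was lower by -0.58, -0.54, -0.81 and -0.73 in combination, BEZ235, RAD001 and placebo mice. Scarb1, the receptor for high density particles, was higher by 0.94, 0.71 and 1.24 with BEZ235, RAD001 and placebo. Lsr was higher by 0.49 with RAD001 and 0.57 with placebo, and Sdc1 was lower by -0.83 with placebo. The list's median ran from -0.29 with placebo to 0.21 with RAD001.

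Of 11 tested lipases, transfer and efflux genes, 2 were higher and 2 lower with the combination, 3 and 3 with BEZ235, 2 and 4 with RAD001, and 3 and 4 with placebo. Lpl, the lipase on which Apoa5, Apoc2 and Apoc3 act and which is chiefly made outside the adult liver, was higher in tumours by 1.83, 2.10, 2.94 and 2.71 in combination, BEZ235, RAD001 and placebo mice. Pon1, an enzyme carried on high density particles, was lower by -1.87, -1.98, -2.0 and -2.61. Angptl8, an inhibitor of lipoprotein lipase made in liver, was higher by 1.90 with the combination, 1.74 with BEZ235 and 2.03 with placebo. Pon3 was lower by -0.59, -0.51, -0.55 and -0.83 in combination, BEZ235, RAD001 and placebo mice. Gpihbp1, which anchors that lipase to capillary walls, was higher by 0.83 with BEZ235, 0.44 with RAD001 and 0.64 with placebo, and Lmf1 was lower by -0.49 with RAD001 and with placebo. The list's median was between -0.16 and 0.06.

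Of 22 tested regulators of apolipoprotein genes, 1 was higher and 3 lower with the combination, 2 and 4 with BEZ235, 1 and 8 with RAD001, and 2 and 5 with placebo. Foxa3 was higher by 0.78, 0.91, 0.85 and 1.13 with combination, BEZ235, RAD001 and placebo. Cebpa was lower by -0.57, -0.61, -0.70 and -1.0 in the same order. The bile acid receptor Nr1h4 was lower by -0.95 with BEZ235, -0.98 with RAD001 and -1.13 with placebo. Creb3l3, known in mice to act on Apoa4, Apoa5 and Apoc2, was lower by -0.60 with RAD001 and -0.43 with placebo. Nr2f2 was lower by -0.57 with the combination, -0.51 with BEZ235 and -0.71 with RAD001, Foxo1 by -0.64 with the combination and Mlxipl by -0.64 with RAD001. Srebf2 was higher by 0.70 with BEZ235 and 0.48 with placebo. The medians of this list, between -0.32 and -0.21, lay below the median of all genes, which was between -0.01 and 0.01. The hepatocyte markers had like medians, between -0.32 and -0.24.

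The genes whose pattern was most like that of each member were read over all 49 animal-by-tissue values, which share tissue and treatment. Apoc2 (Pearson's r 0.90), Abcd2 (0.89) and Vnn3 (0.88) came closest to Apoa4. Their r was 0.74, 0.83 and 0.83 within tumours and 0.55, 0.27 and 0.53 within livers. For Lcat they were Nr1i3 (0.87), Cyp2d40 (0.86) and Slc29a1 (0.85), with 0.67, 0.68 and 0.61 within tumours and 0.19, 0.16 and 0.37 within livers. For Apoa5 they were Cyp3a25 (0.75), Klf9 (0.74) and Aldh8a1 (0.73), with 0.65, 0.65 and 0.54 within tumours and 0.35, 0.21 and 0.57 within livers. Apoc3 had Uroc1 (0.70), Serpina1c (0.67) and Serpinc1 (0.66), and Mttp had Pygl (0.65), Itprid2 (0.64) and Proz (0.64). Apoe had Cpn1 (0.66), Becn1 (0.66) and Igfbp2 (0.57). Apoa1 had Serpina1d (0.55), Aktip (0.54) and Tmed2 (0.49), and Apoa2 had Pole3 (0.52), Atp6v1g1 (0.51) and Gas2l1 (0.49).

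Ordered by group mean, Apoa4 was highest in placebo tumours (14.01 ± 0.56, SD, n = 6), then in combination (13.59 ± 1.00, n = 4), BEZ235 (13.58 ± 1.18, n = 6) and RAD001 tumours (12.98 ± 2.06, n = 6). The livers followed, with 11.17 ± 0.71 for the combination, 10.80 ± 0.80 for RAD001, 10.67 ± 0.69 for placebo and 10.25 ± 1.03 for BEZ235. Lcat had the reverse order of tissues, from 12.13 ± 0.14 in RAD001 livers to 11.24 ± 0.45 in RAD001 tumours. In both genes neighbours of the same tissue lay within 1 SD of each other. Mttp group means spanned 0.52 in all, from 8.20 in RAD001 tumours to 8.73 in combination livers.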

How the data were processed

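Illumina mouse expression arrays were used. Per the submitters' processing notes BeadStudio was among the authors' tools, with its version not given in the sources used here. The deposited values are background-subtracted linear intensities, and within a treatment all arrays held the same values rank by rank, which shows a quantile normalization of each treatment by the authors. From these intensities the 64 arrays were quantile-normalized together, corrected with normexp (noise SD 7.02, offset 16) and taken to log2. Probes above 14.0 on at least 6 arrays were kept (15244 of 25697), and the brightest probe stood for a gene (10495 genes). Tests used limma 3.58.1 in R 4.3.3, two-sided, with Benjamini-Hochberg adjustment over all genes. Tumour against liver and the treatment-by-tissue effects were fitted over 8 groups with the animal, named by the number in the sample titles, as a random block (correlation 0.0968); 18 animals gave both tissues. Treatments were compared within 4 tumour or 4 liver groups. Scripts were tested on simulated data. The number of animals limits the precision. A second, non-normalized table with 128 value columns was not used, since its column names match no label.

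The members and lists were chosen with earlier results of these data known. All 10 members are named; of each pathway list, the genes past the limit with the 4 lowest p per comparison are named, with their value in every treatment where they passed; for likeness, the 3 genes outside the members with the highest r. The tumours left out and the tumour score draw on an earlier look at these arrays, and mouse 773 was added after its score was seen.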

Additional observations from a re-analysis of the deposited data

Results flagged for a closer look

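In 10 of 64 sets of values of 1 gene in 1 group, Dixon's test at 95% flagged a mouse. Its gap to the next value was a large share of the group's range. Chance gives about 1 in 20 for normally distributed values, and bright probes near the top of the scale need not follow that. Apoa1 was low in the BEZ235 tumour of mouse 693 (14.52, next 14.95), the combination liver of mouse 773 (14.52, next 14.98) and the RAD001 liver of mouse 745 (14.60, next 14.96). Apoa2 was low in the placebo tumour of mouse 771 (15.03, next 15.21). Apoc3 was low in the BEZ235 tumour of mouse 728 (14.98, next 15.16), the BEZ235 liver of mouse 755 (14.94, next 15.17) and the RAD001 tumours of mouse 763 (14.39, next 15.18). Apoe was low in the combination tumour of mouse 773 (14.09, next 14.49). Mttp was high in the combination liver of mouse 773 (9.57, next 8.80) and low in the placebo tumours of mouse 747 (8.09, next 8.55). Mouse 773 holds 3 of the 10. Apoa1 and Mttp were flagged in its liver, which scored 0.034 on the scale from placebo liver to placebo tumour. Apoe was flagged in its tumour, which scored 0.392.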

How the results depend on the processing

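The 152 differences of 8 genes in 19 comparisons were recomputed under 12 to 14 other settings, as each applied, and without each animal of the groups compared (7 to 17 animals), 3752 results in all. None that was called turned round, 10 lost their call and 228 values that passed the limit under neither setting changed sign. The count of members called between combination tumours and livers was 1 with the animal as a fixed replicate block and 1 to 2 without single animals, since Apoa4 lost its call in the fixed replicate block (2.32, adjusted p = 0.0559) and without mouse 713 (1.96, 0.0596). Mttp in RAD001 tumours lost its call with every tumour as its own array (-0.47, 0.0804), with array weights (-0.34, 0.0875) and with the tumours of 693, 759, 730, 732 and 773 left out (-0.37, 0.139), beside the settings given with that result. Other calls of the members held under every setting. The causes were not tested. Bright probes near the top of the scale and groups of 4 to 7 mice limit what could be seen.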
